A study of Homo sapiens with 6 samples.

Results

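A set of 10 keratin genes, KRT5, KRT7, KRT8, KRT17, KRT18, KRT19, KRT20, KRT23, KRT80 and KRT81, were followed in RNA of a colorectal cancer cell line with and without a full set of DNA methyltransferases. The genes were chosen by name, with earlier results of these data known. They were found by Ensembl identifier among 57820 human genes of the deposited table. The samples were 3 of HCT116, an established human colorectal cancer line (WT), and 3 of DKO1, the same line with DNMT1 and DNMT3B knocked out. Both lines were kept in serum-supplemented McCoy's 5A, without a drug or other treatment in the labels, and stranded messenger RNA libraries were read on an Illumina instrument. DNMT1 copies methylation to the new DNA strand at replication, and DNMT3B adds it to unmethylated sites. The study asks how DNA methylation bears on genome organisation, and its RNA samples show which transcripts differ between the genotypes. All DKO1 samples are of 1 derived line, so loss of the enzymes and other differences between the lines cannot be told apart. Nothing in the labels says that the replicates came from separate cultures, and the p-values therefore rest on a spread that may be purely technical.

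Keratins are the intermediate filament proteins of epithelial cells. Each filament is built from pairs of an acidic type I keratin and a basic or neutral type II keratin, and the cell keeps the pair in balance because unpaired keratin protein is degraded. KRT8 (type II) and KRT18 (type I) are the primary pair of simple, single-layered epithelia such as the gut lining, where KRT19 and KRT20 join them. KRT7 is a type II keratin of ductal and glandular epithelia that is usually low in colon. KRT5 and KRT17 belong to basal cells of stratified epithelia, and KRT81 is a hair keratin. The type II genes and KRT18 lie on chromosome 12 and the other type I genes on chromosome 17.

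Values are TPM, a relative abundance corrected for gene length, so levels of different genes can be compared. Sequencing depth cannot be read from TPM, because every sample is scaled to a common total, and it is unknown here. Each result gives mean TPM ± SD with n = 3 per genotype. Differences are log2 fold changes of TPM + 1 in DKO1 relative to WT, each with limma's standard error (SE), and p-values were adjusted over all 13604 genes tested. Genes are described as having risen or fallen where the adjusted p was under 0.05.

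Of the 10 keratins, 7 reached 1 TPM in at least 3 samples and were tested. KRT7 and KRT23 rose in DKO1, KRT80 fell, and KRT8, KRT18, KRT19 and KRT20 did not pass. Over all tested genes 18.8% were called higher and 9.6% lower, against 2 and 1 of the 7 tested keratins. The groups did not overlap for 5 of these 7, where the same held for 45.4% of all tested genes. The median log2 fold change was 0.41 over the 7 keratins and 0.07 over all tested genes, but KRT7 and KRT23 met the filter only through their DKO1 samples. The other 3, KRT5, KRT17 and KRT81, were too low for the test. Samples with the same replicate number deviated together across genes, and a fit with the replicate number as a block called 3 keratins lower (KRT8, KRT18 and KRT80) and the same KRT7 and KRT23 higher. In that paired fit 22.4% of all tested genes were higher and 13.4% lower.

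**Figure D1:**
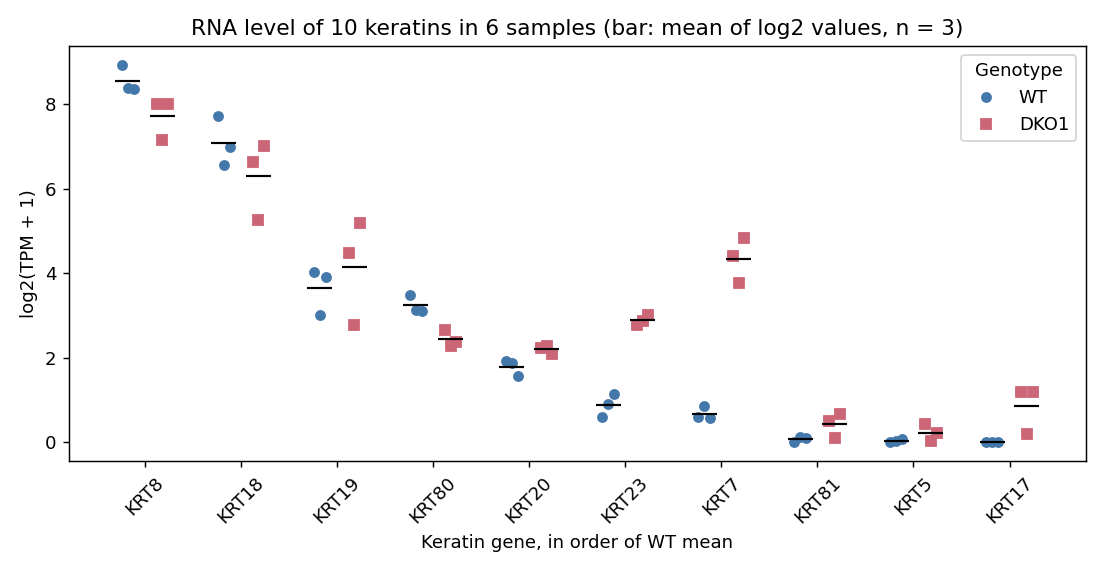
Level of each of the 10 keratins as log2(TPM + 1) in the 3 WT samples (circles) and the 3 DKO1 samples (squares), with a bar at the mean of the log2 values. KRT8 and KRT18 lie highest in both genotypes, and KRT7 moves from a WT mean of 0.6 TPM to 20.1 TPM in DKO1.

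KRT8 (ENSG00000170421.7) was the most abundant of the 10 keratins in every sample. It was at 488, 333 and 326 TPM in WT replicates 1, 2 and 3 and at 256, 142 and 258 TPM in the DKO1 replicates. All 3 DKO1 values lay below all 3 WT values. The means were 382 ± 91.9 TPM in WT and 219 ± 66.3 TPM in DKO1, a ratio of 1.75 of WT to DKO1. The log2 fold change of −0.83 (SE 0.27, 95% confidence interval −1.45 to −0.21) did not pass (adjusted p = 0.0543). It passed in the paired fit (SE 0.17, adjusted p = 0.011), under median-ratio scaling (adjusted p = 0.0177) and without DKO1 replicate 3 (adjusted p = 0.045). Between same-numbered samples KRT8 differed by −0.93, −1.22 and −0.33 on the log2 scale. Since the groups did not overlap, any pairing gives lower values in DKO1 in 3 of 3 pairs.

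KRT18 (ENSG00000111057.6), the type I partner of KRT8, was second in level in every sample. WT replicates 1, 2 and 3 had 209, 94 and 125 TPM, and the DKO1 replicates 98.8, 37.3 and 127 TPM. The groups overlapped, since DKO1 replicate 3 was above WT replicates 2 and 3. The means were 143 ± 59.6 TPM in WT and 87.8 ± 46 TPM in DKO1, with a log2 fold change of −0.79 (SE 0.47, 95% confidence interval −1.89 to 0.32, adjusted p = 0.255). KRT18 passed only in the paired fit (SE 0.25, adjusted p = 0.047), where its pairs differed by −1.08, −1.31 and 0.02. Without DKO1 replicate 2 the log2 fold change was −0.27 (adjusted p = 0.56), and without WT replicate 1 it was −0.47 (adjusted p = 0.55). KRT18 RNA is hard to assign, because 28.9% of the 50-base windows of its longest protein-coding transcript also occur in transcripts of 43 other genes, none of them protein-coding. The 67 rows of KRT18 pseudogenes summed to at most 1.6 TPM in a sample, and adding them gave a log2 fold change of −0.77. The KRT8 and KRT18 gene models also overlap on opposite strands, and whether reads were counted by strand is not given in the sources used here.

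The ratio of KRT8 to KRT18 was 2.33, 3.54 and 2.6 in the WT replicates and 2.59, 3.81 and 2.03 in the DKO1 replicates. The mean log2 ratio was 1.48 ± 0.31 in WT and 1.44 ± 0.46 in DKO1, a difference of −0.03 (exact permutation p = 0.9, two-sided, n = 3 against 3). With 3 against 3 samples that test cannot give a p under 0.1, so it could not have passed 0.05. Replicate 2 had the highest ratio in both genotypes. Leaving out 1 sample at a time moved the difference between −0.28 (without DKO1 replicate 2) and 0.18 (without DKO1 replicate 3).

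**Figure D2:**
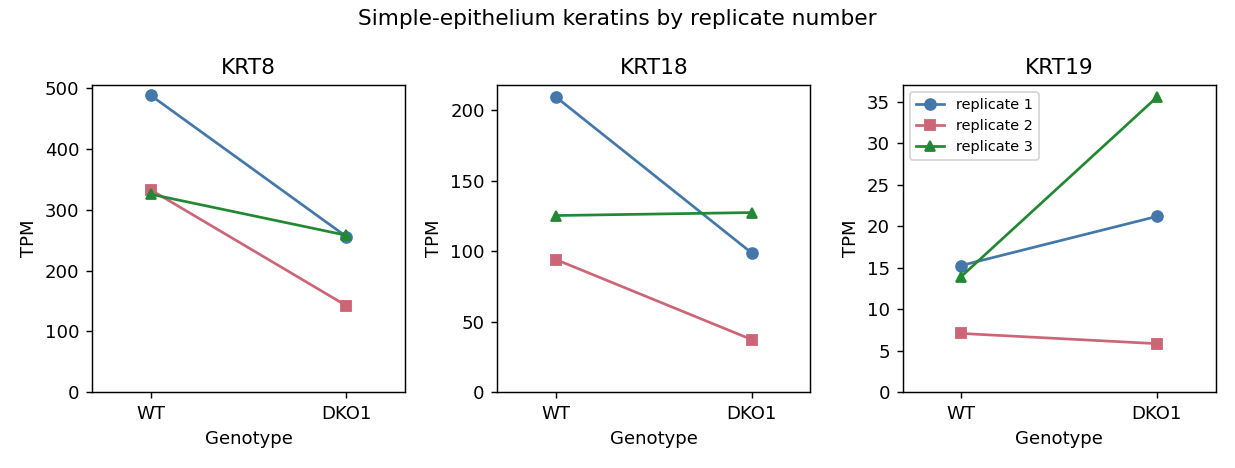
TPM of KRT8, KRT18 and KRT19 in WT and DKO1, with lines joining samples of the same replicate number. Replicate 2 is the lowest sample of KRT18 and KRT19 in both genotypes, and the line of KRT18 replicate 3 is flat at 125 and 127 TPM.

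KRT19 (ENSG00000171345.9), the smallest keratin, which lacks most of the tail domain and can pair with KRT8, varied widely between samples of DKO1. It was at 15.3, 7.08 and 13.9 TPM in WT and at 21.2, 5.85 and 35.5 TPM in DKO1. DKO1 held both the lowest and the highest of the 6 values. The log2 fold change was 0.5 (SE 0.59, 95% confidence interval −0.88 to 1.88, adjusted p = 0.572), and 0.199 was the adjusted p in the paired fit. Leaving out a single DKO1 sample moved it from −0.02 (without DKO1 replicate 3) to 1.18 (without DKO1 replicate 2, adjusted p = 0.0518). Set against KRT18 within each sample, KRT19 was higher in DKO1. The ratio of KRT18 to KRT19 was 13.7, 13.3 and 8.99 in WT and 4.67, 6.38 and 3.58 in DKO1, with no overlap, a ratio chosen after its values were seen and not tested.

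KRT23 (ENSG00000108244.12), a type I keratin described in digestive tract tumours, rose. It had 0.5, 0.86 and 1.21 TPM in WT and at 5.88, 6.3 and 7.11 TPM in DKO1. Every DKO1 sample was above every WT sample, and the 3 DKO1 values lay close together. The means were 0.857 ± 0.355 and 6.43 ± 0.625 TPM, 7.51-fold higher in DKO1 (log2 fold change 2.02, SE 0.19, adjusted p = 0.000208). KRT23 kept its call in each fit in which it was tested, with an adjusted p of at most 0.0102, and it fell below the filter at a mean of 5 TPM.

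KRT20 (ENSG00000171431.3), a type I keratin of differentiated intestinal cells, did not pass. It was at 2.77, 2.68 and 1.94 TPM in WT and at 3.65, 3.85 and 3.26 TPM in DKO1. The groups did not overlap, so DKO1 was higher in 3 of 3 pairs however the samples are paired. The log2 fold change was 0.41 (SE 0.16, 95% confidence interval 0.03 to 0.79, adjusted p = 0.1), and the paired fit gave an adjusted p of 0.0791. Quantile normalization reduced the log2 fold change to 0.05.

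The promoters of KRT20 and KRT5 are shown because DNMT1 and DNMT3B act on CpG dinucleotides, written here in capitals, and these genes differ in level, with KRT20 detected in each sample and KRT5 near 0. Of the 10 keratins 3 had an entry in the RefSeq promoter table (GRCh38.p14), and that of KRT8 starts inside the gene and is not shown. Each sequence is the 250 bases before the annotated start, on the gene's own strand (minus), 5′ to 3′.
KRT20, chr17:40885243-40885492: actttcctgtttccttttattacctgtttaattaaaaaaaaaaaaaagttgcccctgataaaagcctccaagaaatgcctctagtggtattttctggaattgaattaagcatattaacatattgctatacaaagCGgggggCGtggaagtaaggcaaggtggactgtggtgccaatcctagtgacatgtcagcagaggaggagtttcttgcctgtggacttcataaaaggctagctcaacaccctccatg
KRT5, chr12:52520395-52520644: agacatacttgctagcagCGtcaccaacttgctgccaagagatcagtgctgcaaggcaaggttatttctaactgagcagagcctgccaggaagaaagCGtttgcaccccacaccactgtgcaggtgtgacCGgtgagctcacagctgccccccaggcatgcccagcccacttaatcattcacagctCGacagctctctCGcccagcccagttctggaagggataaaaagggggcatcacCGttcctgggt
The KRT20 stretch holds 2 CpG and the KRT5 stretch 6. Both lie below the median of 11 over 35116 promoters of the same length, of which 22.9% hold 2 or fewer and 41.1% hold 6 or fewer. CG reads the same on both strands, and a count of it says nothing of its methylation. No methylation data were analysed here.

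KRT7 (ENSG00000135480.10) rose most of the tested keratins. It was at 0.51, 0.81 and 0.48 TPM in WT and at 20.2, 12.7 and 27.45 TPM in DKO1. The lowest DKO1 sample was far above the highest WT sample. The means were 0.6 ± 0.182 and 20.1 ± 7.38 TPM, 33.5-fold higher in DKO1 (log2 fold change 3.66, SE 0.27, adjusted p = 7.555e-05). The log2 fold change stayed between 3.34 (quantile normalization) and 4.04 (without replicate 2 in both genotypes) at a pseudocount of 1, and was 4.81 at a pseudocount of 0.1, with the call kept. The KRT7 gene model overlaps those of KRT86 and of the antisense gene KRT7-AS, which reached at most 0.08 and 0.15 TPM.

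KRT80 (ENSG00000167767.9), a type II keratin expressed in many epithelia, fell. It was at 10.2, 7.79 and 7.57 TPM in WT and at 5.26, 3.85 and 4.14 TPM in DKO1. The groups did not overlap, and the pairs differed by −0.84, −0.86 and −0.74. The means were 8.53 ± 1.47 and 4.42 ± 0.745 TPM, 1.93-fold lower in DKO1 (log2 fold change −0.81, SE 0.18, adjusted p = 0.0145, and 0.00678 in the paired fit). The call was lost without WT replicate 1 (log2 fold change −0.69, adjusted p = 0.058), and with both samples of replicate 1, 2 or 3 left out (adjusted p = 0.0737, 0.0694 and 0.0644).

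**Figure D3:**
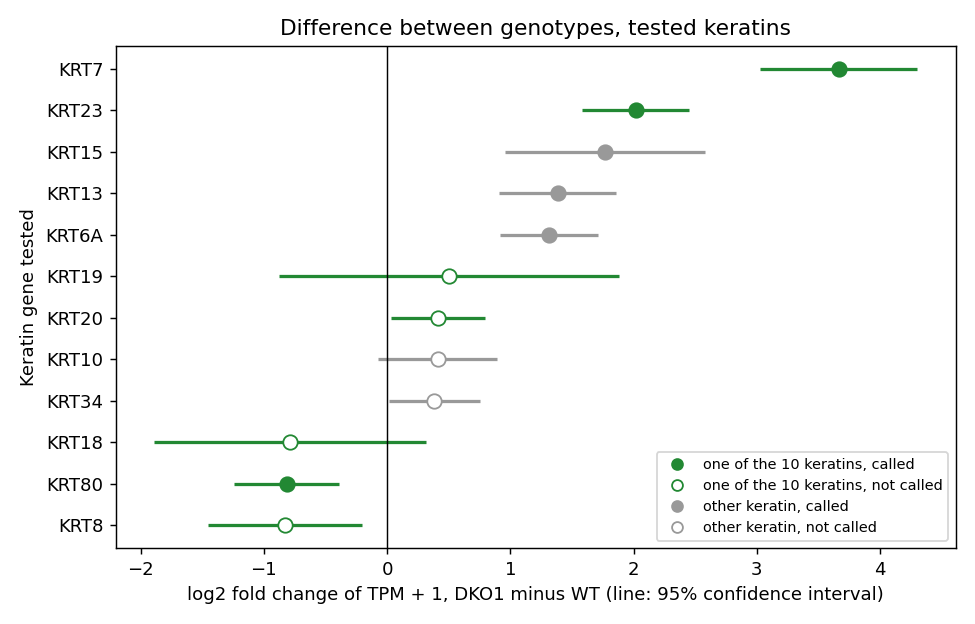
Log2 fold change of TPM + 1 between DKO1 and WT for the 7 tested keratins of the set (green) and 5 other tested keratins (grey), with 95% confidence intervals. Filled points passed the test, with KRT7 farthest to the right at 3.66, and the intervals of KRT18 and KRT19 cross 0.

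The other 3 keratins of the set, KRT5, KRT17 and KRT81, stayed at or below 1.28 TPM in each sample. KRT17 (ENSG00000128422.11) was listed at 0 in all 3 WT samples and at 1.28, 0.15 and 1.28 TPM in DKO1. It failed the filter because of DKO1 replicate 2, and with no filter its log2 fold change of 0.86 had an adjusted p of 0.0794. Without DKO1 replicate 2, when the filter asks for 2 samples, KRT17 was called higher (log2 fold change 1.19, adjusted p = 0.000586). That fit leaves out the low DKO1 sample and sets 2 equal DKO1 values against 0 in WT, so it is no support. Under the same filter KRT17 did not pass without WT replicate 1, 2 or 3 (adjusted p = 0.1246, 0.1215 and 0.1353). Of its 50-base windows 16% occur in other genes, and its pseudogenes held 28.6% to 35.7% of the summed TPM in DKO1. KRT5 (ENSG00000186081.7) was at 0, 0.02 and 0.05 TPM in WT and at 0.34, 0.02 and 0.16 TPM in DKO1. KRT81 (ENSG00000205426.6) was at 0, 0.08 and 0.06 TPM in WT and at 0.42, 0.06 and 0.58 TPM in DKO1. For both, DKO1 replicate 2 lay within the WT range while DKO1 replicates 1 and 3 were above it. With no filter neither passed (adjusted p = 0.244 for KRT5 and 0.162 for KRT81). Among the 50-base windows of KRT81, 44.6% occur in other genes and 42.1% in 5 protein-coding ones, led by the hair keratin KRT86, so the assignment of its RNA is uncertain.

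In WT the mean levels ran KRT8, KRT18, KRT19, KRT80, KRT20, KRT23, KRT7, KRT81, KRT5 and KRT17. The sample ranges overlapped for the neighbours KRT19 and KRT80, for KRT23 and KRT7, and among KRT81, KRT5 and KRT17. In DKO1 the order was KRT8, KRT18, KRT19, KRT7, KRT23, KRT80, KRT20, KRT17, KRT81 and KRT5. There KRT19 overlapped KRT7, KRT80 overlapped KRT20, KRT17 overlapped KRT81, and KRT81 overlapped KRT5.

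KRT8 and KRT18 together made up a smaller share of the 10 keratins' TPM in DKO1. Their share was 96%, 95.7% and 94.7% in WT replicates 1, 2 and 3 and 85.9%, 84.6% and 82.9% in the DKO1 replicates. Within the 5 type II genes, KRT7 went from 0.102% to 0.237% of the summed TPM in WT to 7.16% to 9.45% in DKO1. Within the 5 type I genes, KRT18 held 88% to 91.9% in WT and 69.8% to 75.5% in DKO1. None of these 3 shares overlapped between the genotypes. The summed level of the 10 genes was 727, 446 and 476 TPM in WT and 413, 212 and 465 TPM in DKO1, and here the groups overlapped. The type II to type I ratio, 2.19 to 3.27 in WT and 1.67 to 2.97 in DKO1, overlapped as well. These sums and shares are descriptions, with no test.

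**Figure D4:**
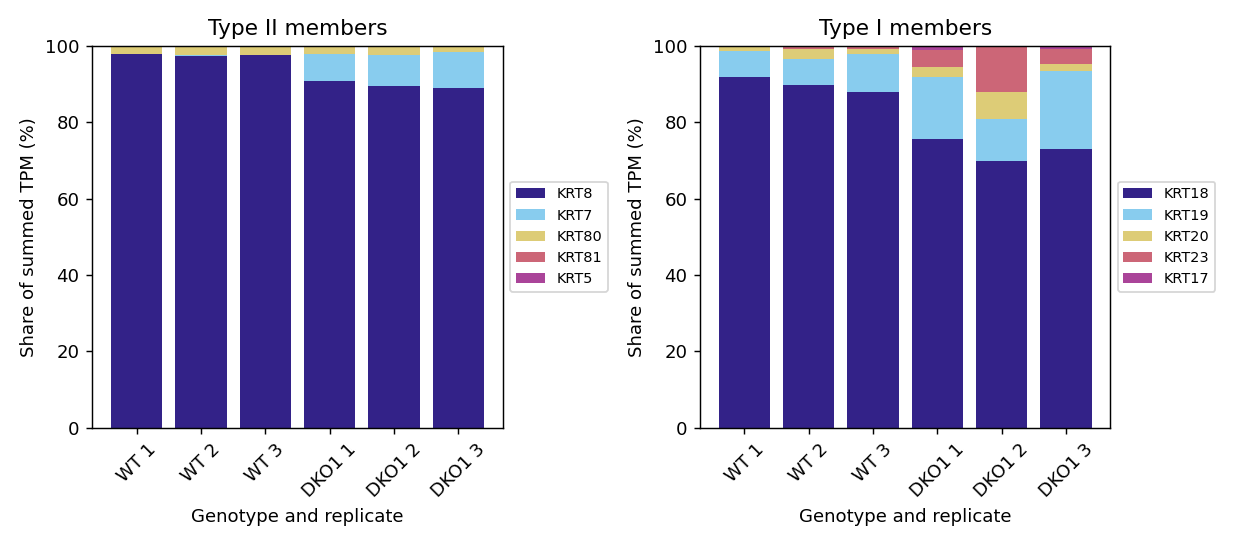
Share of the summed TPM held by each gene among the 5 type II keratins (left) and the 5 type I keratins (right) in each sample. KRT8 and KRT18 take most of each bar, and KRT7 is visible in the 3 DKO1 bars at 7.16% to 9.45%.

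DKO1 replicate 2 was the lowest DKO1 sample for 8 of the 10 keratins, the exceptions being KRT20 and KRT23. Over all tested genes, which leave out KRT5, KRT17 and KRT81 of these 8, replicate 2 was the lowest DKO1 sample for 38% and replicate 1 for 39.8%. In WT, replicate 2 was the lowest sample for KRT18 and KRT19, against 34.8% of all tested genes. Mitochondrially encoded transcripts took 26.9%, 27.7% and 21.2% of TPM in the DKO1 replicates and 19.7% to 20.1% in WT, and their part in these results was not tested. After removal of mitochondrial rows and rows that are not human genes, with TPM rescaled, KRT7 and KRT23 were called higher and KRT80 lower as before.

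Among 44 other type I and type II keratins, 5 were tested, 3 rose and 0 fell, beside 18.8% higher and 9.6% lower over all tested genes. KRT15, a type I keratin of basal cells, rose 7.3-fold, from 0.73 ± 0.209 to 5.33 ± 2.67 TPM (adjusted p = 0.00848). KRT13, of moist stratified epithelia, was at 0, 0.05 and 0.08 TPM in WT and at 1.27, 1.4 and 2.7 TPM in DKO1 (log2 fold change 1.38, adjusted p = 0.00204). KRT6A, of activated keratinocytes, was at 0.02, 0 and 0.03 TPM in WT and at 1.27, 1.22 and 2.19 TPM in DKO1 (log2 fold change 1.31, adjusted p = 0.00108). KRT6A has near-identical copies, so its level is uncertain. These 3 were tested because they reached 1 TPM in DKO1. KRT15 lost its call with both samples of replicate 1 or of replicate 3 left out (adjusted p = 0.0898 and 0.0681). KRT10, the type I keratin of cornifying epidermis, was at 23.6 ± 2.81 and 32.3 ± 8.19 TPM (adjusted p = 0.181), and KRT34, a hair keratin, at 1.68 ± 0.205 and 2.5 ± 0.42 TPM (adjusted p = 0.11). KRT34 turned to a log2 fold change of −0.02 under quantile normalization. Both passed only without DKO1 replicate 3 (adjusted p = 0.018 for KRT10 and 0.0478 for KRT34). The other 39 reached at most 1.37 TPM in a sample, and 14 of them were listed at 0 throughout.

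Desmosomes join keratin filaments of neighbouring cells, and of 8 tested desmosome genes 0 rose and 0 fell by limma's adjusted p, with a median log2 fold change of 0.18. The paired limma fit called 0 as well, and limma's p before adjustment was under 0.05 for 1 of them, PKP2, a plakophilin named for that value. The plakin DSP, which anchors keratin in the desmosome, had 55.9 ± 4.45 TPM in WT against 46.5 ± 5.93 TPM in DKO1 (adjusted p = 0.18). Hemidesmosomes bind keratin filaments to laminin under the cell, and of 10 tested hemidesmosome and plakin genes 6 rose and 1 fell, with a median of 0.87. Over all tested genes 18.8% were higher and 9.6% lower, with a median of 0.07. Of the 6 that rose, 5 (LAMA3, LAMB3, ITGB4, COL17A1 and PPL) met the filter through the DKO1 samples alone, so the count and median are a description and no support. The laminin chain LAMA3 rose from 0.557 ± 0.137 to 8.79 ± 1.61 TPM (log2 fold change 2.64, adjusted p = 4.348e-05). LAMB3 rose from 1.05 ± 0.121 to 5.69 ± 2.3 TPM (adjusted p = 0.00435) and the integrin ITGB4 from 0.577 ± 0.661 to 4.2 ± 2.05 TPM (adjusted p = 0.0164). COL17A1, a transmembrane hemidesmosome collagen, went from 0.08 ± 0.0866 to 1.99 ± 0.716 TPM (adjusted p = 0.00131). The gene that fell was DST, from 40.9 ± 5.29 to 19.6 ± 9.35 TPM (adjusted p = 0.0276), named after its value was seen. DST lost its call in 5 of 6 fits that left out 1 sample, with an adjusted p of up to 0.0983, and ITGB4 in 3 of 6, with up to 0.0693. Of 11 tested genes of keratin filament organisation 1 rose and 0 fell, with a median of 0.21. The paired fit called 2 higher and 1 lower, beside 22.4% and 13.4% of all tested genes. Without pairing the gene that rose was PPL, a plakin that is also in the hemidesmosome list. Its adjusted p of 0.0477 rose past the threshold in 4 of 6 fits leaving out 1 sample (up to 0.169). In the paired fit PNN, a desmosome-associated and nuclear protein, was lower (log2 fold change −0.96, adjusted p = 0.0237, and 0.0748 without pairing). TRADD, an adaptor of death receptors that binds KRT18, was higher there (log2 fold change 0.51, adjusted p = 0.0408, and 0.148 without pairing). Like PPL, TRADD met the filter through the DKO1 samples alone.

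Of 9 tested intermediate filament genes other than keratins, 5 rose and 1 fell, with a median of 0.66, beside 18.8% higher, 9.6% lower and a median of 0.07 over all tested genes. Of the 5 that rose, INA met the filter through DKO1 alone. The paired fit added LMNA, a nuclear lamina gene, as higher (adjusted p = 0.0153). VIM, the filament protein of mesenchymal and many cultured cells, rose from 255 ± 22.95 to 822 ± 88.2 TPM, 3.22-fold (adjusted p = 7.803e-05). Its level thus lay below that of KRT8 in each WT sample and above it in each DKO1 sample. NES rose 3.07-fold and the neurofilament gene NEFH 11.3-fold, and INA rose from 0.02 ± 0.0265 to 9.36 ± 2.78 TPM. SYNM, the other that rose (log2 fold change 0.51, adjusted p = 0.043), lost its call in 5 of 6 fits that left out 1 sample. Over the 16 settings that tested SYNM, its adjusted p reached 0.786. The gene that fell was LMNB1, a nuclear lamina gene, with a log2 fold change of −0.4 (adjusted p = 0.017), named after its value was seen. The call of LMNB1 was lost without any 1 of the WT replicates (adjusted p of up to 0.0827). It was also lost under quantile normalization or removal of mitochondrial rows and rows that are not human genes (adjusted p = 0.138 and 0.0594).

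Of 11 tested epithelial regulators, transcription factors together with the splicing regulators ESRP1 and ESRP2, 7 rose and 1 fell. ESRP1 was among the 7, and its log2 fold change of 0.61 was the median of the list. All tested genes gave 18.8% higher, 9.6% lower and a median of 0.07. Of the 7 that rose, ELF3 and OVOL2 met the filter through DKO1 alone. The paired fit added ESRP2, a splicing regulator of epithelial cells, as lower (adjusted p = 0.0228). ELF3 rose from 0.653 ± 0.127 to 6.15 ± 2.78 TPM (adjusted p = 0.00239) and TFAP2C from 1.65 ± 0.309 to 4.69 ± 0.754 TPM (adjusted p = 0.00277). OVOL2 and GRHL1 rose as well (log2 fold changes 0.93 and 0.65), and each lost its call in 2 of 6 fits that left out 1 sample. KLF4, KLF5 and ESRP1, the others that rose, lost theirs in 5, 3 and 2 of 6 such fits. ELF3 and TFAP2C kept theirs in all 6. CDX2, a regulator of intestinal identity, fell from 1.31 ± 0.0808 to 0.643 ± 0.107 TPM (adjusted p = 0.026), named after its value was seen, and lost the call in 3 of 6 such fits. Of 16 squamous differentiation genes 1 was tested, SERPINB5, which rose from 5.45 ± 0.596 to 43.9 ± 3.4 TPM (adjusted p = 1.502e-05). Of 17 enterocyte genes 1 was tested, CA2, at 40.9 ± 3.69 and 36.8 ± 4.14 TPM (adjusted p = 0.454).

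The targeted DNMT1 was 6.68-fold lower in DKO1 (adjusted p = 3.594e-05) and DNMT3B 1.66-fold lower (adjusted p = 0.03), in 3 of 3 samples each, with the DNMT3B call lost in 4 of 6 fits that left out 1 sample. The deleted stretches of both genes were not examined, so this is a partial check of the labels. Among epithelial markers, CDH1 and CLDN4 rose 3.3-fold and 2.33-fold (adjusted p = 0.000418 and 0.00436). The defining epithelial marker EPCAM was at 488 ± 42.4 and 456 ± 73 TPM (adjusted p = 0.624). Of 11 mesenchymal markers 6 were tested. Of these, 4 rose (VIM, CDH2, ZEB2 and SNAI2) and 0 fell, beside 18.8% higher and 9.6% lower over all tested genes. FN1 and ZEB1 did not pass (log2 fold changes 0.49 and −0.42, adjusted p = 0.303 and 0.216). The sums of the 11 were 244 to 284 TPM in WT and 759 to 934 TPM in DKO1, nearly all from VIM. CDH2 and ZEB2 were listed at 0 in WT and met the filter through DKO1 alone. Of 6 blood markers 0 were tested, with sums of 0.2 to 0.65 TPM in WT and 1.66 to 2.52 TPM in DKO1, and HBB was listed at 0 in all samples. The part of these marker differences in the keratin results was not tested. In such bulk RNA, more cells that express a keratin and more RNA per cell cannot be told apart.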

How the data were processed

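RNA was measured in 3 WT and 3 DKO1 samples. The authors deposited TPM per gene for each sample, rounded to 2 decimals. The tools named by the submitters' processing notes, with no roles, were RSEM 1.2.21, STAR 2.5.3a, edgeR 3.12.1, Trim Galore 0.4.0 and FastQC, with builds hg19 and GRCh37. For the annotation and strand setting, the sources used here give nothing. The table held 57897 rows, of which 77 were not human genes and stayed out of the tests, and symbols matched 90.5% of human rows by Ensembl identifier. Gene models and 50-base windows came from GENCODE 29 (GRCh38), used without coordinates because the build differs.

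Genes that reached 1 TPM in 3 or more samples entered a limma 3.58.1 fit (R 4.3.3) of log2(TPM + 1) on genotype alone, with trended variances and Benjamini-Hochberg adjustment. The filter asks for as many samples as the smaller group when samples are left out. The script was tested on simulated data. The keratin ratio used an exact permutation test (scipy 1.17.1). Deviations from the genotype means correlated at 0.35, 0.572 and 0.267 between same-numbered samples (replicates 1, 2 and 3) over tested genes, so the numbers were taken to pair the samples. Between samples of different number the correlations ran from −0.383 to 0.128. Each deviation is from the mean of its own genotype, so higher same-number correlations force lower ones between different numbers. That contrast is therefore partly built in. The source of the pairing is the correlation of same-numbered samples, since the labels give only the numbers. The pairing and the paired fit thus rest on the same values, and p-values of the paired fit are no independent support.

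The keratins and gene lists were chosen with earlier results of these data known. All 10 keratins and all other tested keratins are named. From each list, called genes are named, or the 4 with the largest change where more than 5 were called. KLF4, KLF5, ESRP1 and SYNM are named besides for the stability of their calls. FN1 and ZEB1 are named as tested mesenchymal markers that did not pass, and EPCAM and CLDN7 as such epithelial markers. The count over the epithelial markers, and a gene of that list, are not reported here. Settings tried besides were quantile normalization, median-ratio scaling, a filter at a mean of 5 TPM or none, and a pseudocount of 0.1. Others were removal of mitochondrial rows and rows that are not human genes, no variance trend, and a replicate block. Sums with pseudogenes or near-identical copies, and leaving out samples, were tried too. Leaving out both samples of a replicate number was added after seeing the data.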

Additional observations from a re-analysis of the deposited data

How the results depend on the processing

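As reported, 2 keratins were called higher and 1 lower. A mean of at least 5 TPM removed KRT23 and left 1 higher. Median-ratio scaling called 2 lower and the replicate block 3 lower. Leaving out samples gave 2 to 3 higher and 0 to 2 lower keratins. KRT7 kept its call in all 17 other fits and KRT23 in all 16 that tested it. KRT19 had a log2 fold change of −0.0226 (without DKO1 replicate 3) to 1.18 with samples left out, and the difference in the KRT8 to KRT18 log2 ratio ran from −0.28 to 0.18, where 0.14 was the value without WT replicate 2. Over all genes 2558 were higher and 1306 lower, with 4400 higher under no filter, 1145 higher at a mean of at least 5 TPM, and 3053 higher and 1817 lower with the replicate block. Leaving out samples gave 1454 to 3083 higher and 257 to 2096 lower genes. The lower count was 611, 537 and 565 without WT replicates 1, 2 and 3, and 2096 without DKO1 replicate 3. Median-ratio scaling called 2243 higher and 1732 lower, and quantile normalization 1817 and 1939. Removal of mitochondrial rows and rows that are not human genes called 3489 and 1073. The median over tested genes, 0.07 as reported, was −0.07 and 0.19 in the last 2. The paired fit changed no call among the keratins and listed genes other than those of KRT8, KRT18, LMNA, PNN, TRADD and ESRP2. The causes of these differences between settings were not tested. Depth is unknown, which limits the keratins near 0 TPM.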
